A study of Mus musculus with 16 samples.

Results

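The 10 marker genes described here belong to hippocampal subfields other than CA1 and were read in RNA from dissected CA1 of mice labelled wild type or Neil3-/-. They were 10 of the 17986 genes listed in both deposited tables, chosen by symbol from textbook subfield markers: 6 of CA2 (Pcp4, Rgs14, Amigo2, Necab2, Map3k15 and Cacng5), 1 of CA3 (Bok) and 3 of the dentate gyrus (Prox1, Lct and Trpc6). All 10 were present in both tables. They and the longer marker lists below were chosen with earlier results of these data known. The mice were male, 3 to 6 months old and on a C57Bl6 background, and the mutants were described as deficient for NEIL3, a DNA glycosylase of base excision repair. The 4 groups were wild type mice from the home cage (n = 2), Neil3-/- mice from the home cage (n = 2), wild type mice after spatial exploration (n = 3) and Neil3-/- mice after spatial exploration (n = 3). Home cage mice had no intervention, and the exploration mice spent 20 min per day for 1 week in an open field with sides of 50 cm and were killed 20 min after the final session. CA1 was cut by laser from frozen sections of 8 µm, and the series' text counts 2 animals per genotype at baseline and 3 after learning, as many as the libraries per group here.

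The hippocampus is built from the dentate gyrus, whose granule cells send mossy fibres to CA3, and from CA3, CA2 and CA1, whose pyramidal cells lie in 1 continuous layer. CA2 is a short stretch of that layer between CA3 and CA1, known for social memory and for synapses at which potentiation is hard to induce. Its cells are recognised by Rgs14, which limits that potentiation, by Pcp4, a small protein that binds calmodulin, and by Amigo2, an adhesion molecule. In a dissection of CA1, these genes report RNA from the neighbouring fields together with whatever CA1 cells themselves transcribe.

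Shown here are the sequences just upstream of the start sites of the 5 genes called higher after exploration in the libraries labelled Neil3-/-. They come from RefSeq in GRCm38.p6 and are written 5′ to 3′ on the strand of the gene. They are chr16:96467356-96467605 (plus strand), chr15:97247288-97247537 (minus strand), chr11:107915056-107915305 (minus strand), chr1:93685325-93685574 (plus strand) and chr1:128328319-128328568 (minus strand). Capitals mark every match, on either strand, to the AP-1 site TGANTCA, the GC box GGGCGG, the cAMP response element TGACGTCA, the Egr site GCGNGGGCG or the TATA box TATAAA. The Egr site can overlap a GC box, and no matches overlap here.
Pcp4: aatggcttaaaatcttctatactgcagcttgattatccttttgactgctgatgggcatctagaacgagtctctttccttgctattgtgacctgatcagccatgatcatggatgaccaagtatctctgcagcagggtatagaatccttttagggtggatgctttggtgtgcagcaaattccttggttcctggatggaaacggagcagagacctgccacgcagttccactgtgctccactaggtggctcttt
Amigo2: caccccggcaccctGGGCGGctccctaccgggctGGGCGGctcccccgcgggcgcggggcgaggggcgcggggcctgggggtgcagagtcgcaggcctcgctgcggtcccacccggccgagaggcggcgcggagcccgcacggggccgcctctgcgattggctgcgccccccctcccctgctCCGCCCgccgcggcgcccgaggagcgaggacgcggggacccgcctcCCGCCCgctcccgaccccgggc
Cacng5: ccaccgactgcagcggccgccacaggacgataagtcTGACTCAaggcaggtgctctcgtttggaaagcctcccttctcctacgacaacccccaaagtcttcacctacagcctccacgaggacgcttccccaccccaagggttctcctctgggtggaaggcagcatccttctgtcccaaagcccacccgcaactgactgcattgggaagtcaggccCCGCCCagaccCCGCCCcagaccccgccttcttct
Bok: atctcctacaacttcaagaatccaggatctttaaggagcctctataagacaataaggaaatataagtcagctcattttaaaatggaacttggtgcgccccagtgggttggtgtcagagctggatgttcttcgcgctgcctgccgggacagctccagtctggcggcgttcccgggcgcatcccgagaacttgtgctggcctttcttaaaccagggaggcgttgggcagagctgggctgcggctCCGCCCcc
Lct: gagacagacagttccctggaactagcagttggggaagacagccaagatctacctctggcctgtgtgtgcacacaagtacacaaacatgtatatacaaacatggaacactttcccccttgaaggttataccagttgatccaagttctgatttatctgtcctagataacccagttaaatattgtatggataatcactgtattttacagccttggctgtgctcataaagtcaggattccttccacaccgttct
The 5 windows differed in composition. The Amigo2 window was 84.0% G and C with 38 CG pairs, and those of Pcp4 and Lct were 46.8% and 42.8% with 3 and 1 CG pairs. Over 32851 mouse windows of this length the median was 52.4% and 6 CG pairs. GC boxes numbered 4 in the Amigo2 window, 2 in that of Cacng5 and 1 in that of Bok, and 32.7% of all windows hold 1 or more. The Cacng5 window also held 1 AP-1 site, found in 6.75% of all windows. Marker genes that were not called had such matches too. The Necab2 window held 1 AP-1 site and the first Prox1 window 2 GC boxes and 1 TATA box, while that of Trpc6 held no match. RefSeq lists a second Cacng5 window, at chr11:107911363-107911612 (minus strand, 56.8% G and C), which holds no match to the 5 motifs and is not shown. No searched motif occurred in the windows of Pcp4 and Lct, and none of the 5 windows held a cAMP response element, an Egr site or a TATA box, which 1.55%, 4.7% and 12.4% of all windows hold. These are matches of letters, with no measurement of binding. Windows were listed for 8 of the 10 genes.

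Values were FPKM as deposited, that is, fragments scaled by the authors to transcript length and library size, and so can be compared between genes. Depth was estimated at 18750000 to 20100000 fragments in each library, and 11114 to 11623 genes per library reached 1 FPKM. Neil3 went against the genotype labels: it stood at 0 to 0.05 FPKM in the 5 wild type libraries, by label, and at 8.35 to 15.22 FPKM in the 5 labelled Neil3-/-. Which part of the gene the allele removes is not given in the sources used here. The groups are therefore called WT-labelled and KO-labelled, and every direction between genotypes below is one between labels that Neil3 goes against. Of the CA1 markers, Wfs1 stood at 64.9 to 239 FPKM and the 10 listed markers summed to 981 to 1123 FPKM in every library. Single libraries are named by label, environment and number, as WT cage 1 and 2 and KO cage 1 and 2 for the home cage and WT arena 1 to 3 and KO arena 1 to 3 for exploration. Some stood apart in their subfield genes: WT cage 1 and KO arena 3 were high in CA2 markers, and the changes they bear on most are given without them as well.

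Rgs14 was the most abundant of the 10 genes, with a median over the 10 libraries of 114 FPKM, followed by Pcp4 at 50.5, Necab2 at 20.1, Bok at 14.8, Lct at 13.8, Amigo2 at 5.49 and Cacng5 at 2.55 FPKM. Trpc6, Map3k15 and Prox1 were close to the floor, with medians of 0.82, 0.245 and 0.23 FPKM. The order held in all 10 libraries between Rgs14 and Pcp4, between Amigo2 and Cacng5 in all 10, and between Lct and Amigo2 in 9. Pcp4 exceeded Necab2 in 7 libraries, Necab2 exceeded Bok in 7 and Bok exceeded Lct in 6, so these neighbours could not be ordered. The highest library exceeded the lowest 22.3-fold for Pcp4, 21.0-fold for Lct, 18.8-fold for Amigo2, 9.22-fold for Cacng5 and 7.16-fold for Bok, against 2.56-fold for Necab2 and 1.35-fold for Rgs14. The CA2 genes thus ranged from wide to narrow, and the most abundant of them was the steadiest.

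**Figure D1:**
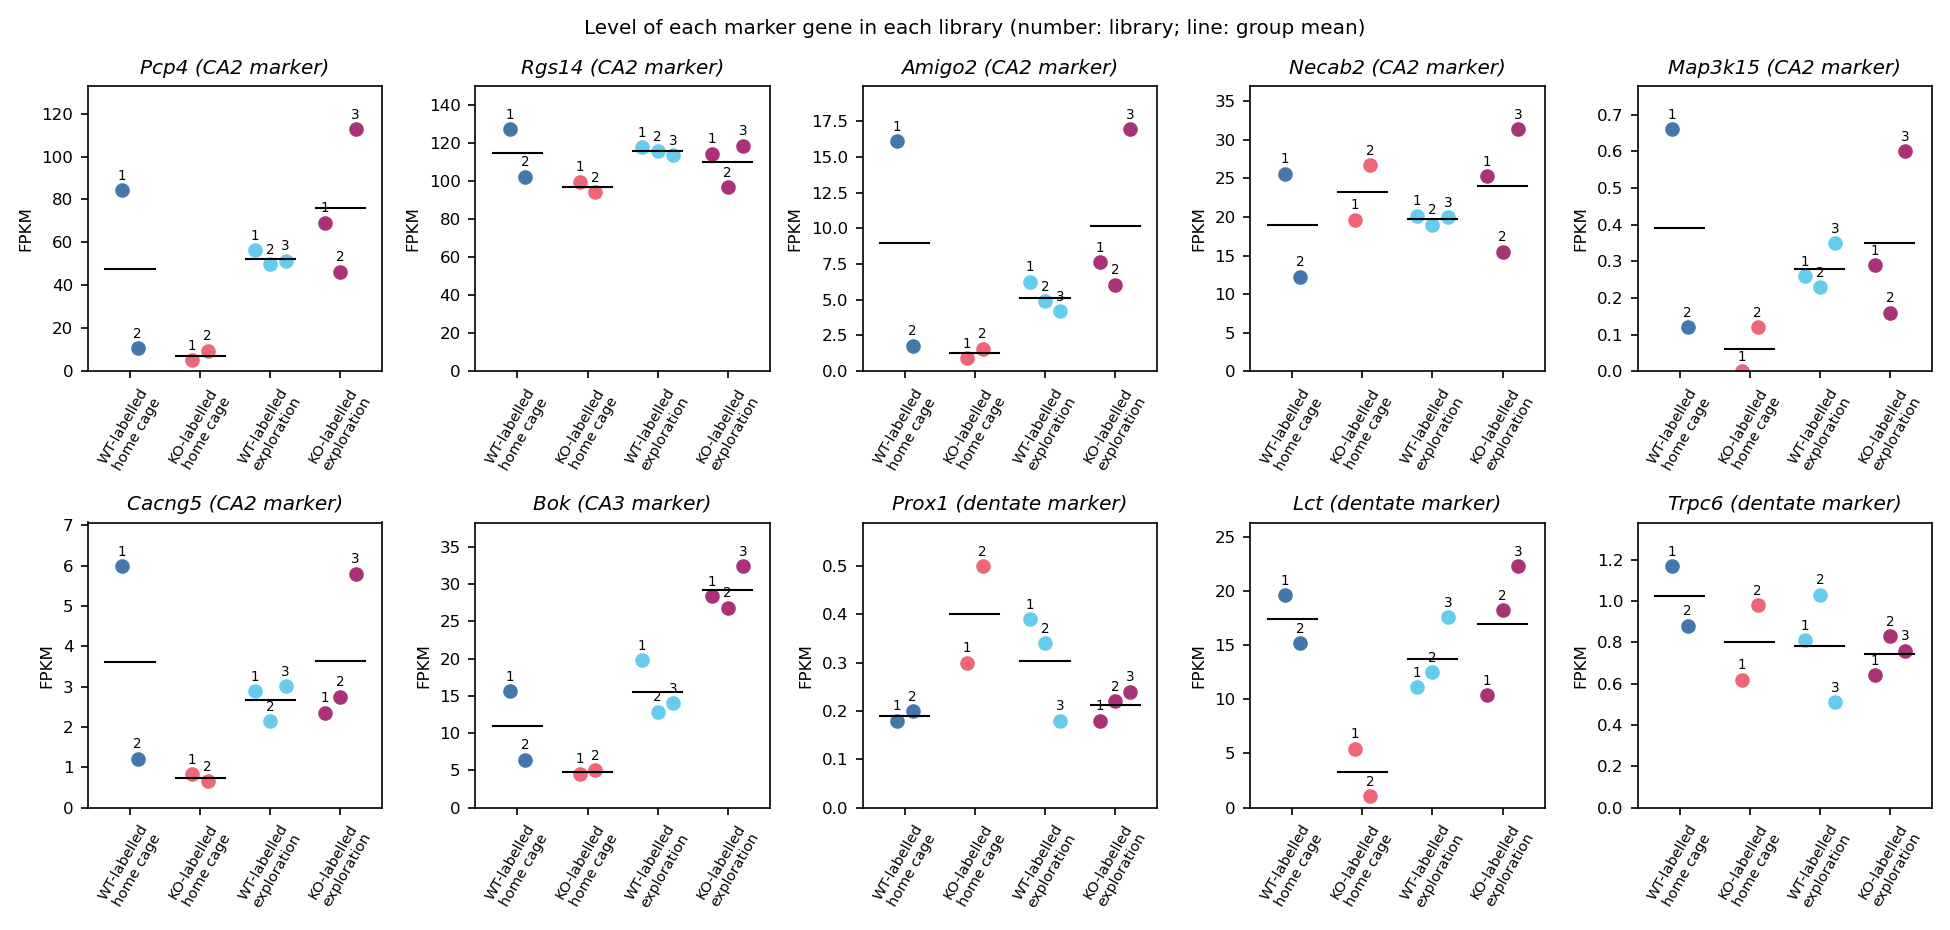
Level in FPKM (linear axes from 0, a scale for each gene) of the 10 marker genes in the 10 libraries, by genotype label and environment; numbers are library numbers and lines are group means. Pcp4, Amigo2, Cacng5, Bok and Lct are low in both KO-labelled home cage libraries, and Rgs14 lies between 94.1 and 127 FPKM throughout.

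Among the CA2 genes, Pcp4 (gene ID 18546, chr16:96467606-96525793 in GRCm38.p6) stood at 84.3 and 10.7 FPKM in the WT-labelled home cage libraries, 5.05 and 9.43 in the KO-labelled home cage libraries, 56.3, 49.7 and 51.4 in the WT-labelled exploration libraries and 69.2, 46.3 and 113 in the KO-labelled exploration libraries. All 6 exploration libraries were high, and 3 of the 4 home cage libraries were low, the exception being WT cage 1. Amigo2 (gene ID 105827, chr15:97244074-97247287) stood at 16.1 and 1.78, 0.9 and 1.58, 6.26, 4.92 and 4.22, and 7.62, 6.06 and 16.9 FPKM in the same order. The same 3 home cage libraries were low, all below every exploration library. Cacng5 (gene ID 140723, chr11:107874604-107915055), an auxiliary subunit of AMPA receptors, stood at 5.99 and 1.21, 0.83 and 0.65, 2.88, 2.14 and 3.01, and 2.35, 2.75 and 5.8 FPKM. Here too the home cage groups overlapped the exploration groups through WT cage 1 alone.

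Rgs14 (gene ID 51791, chr13:55369732-55384687), a signalling scaffold of CA2 synapses, stood at 127 and 102, 99.6 and 94.1, 118, 116 and 114, and 114, 96.8 and 119 FPKM in that order of groups. The KO-labelled home cage pair lay below both WT-labelled groups and overlapped the KO-labelled exploration group, and Rgs14 made up 57.7% of the summed mean level of the 6 CA2 genes. Necab2 (gene ID 117148, chr8:119446719-119472640), a calcium-binding protein, stood at 25.6 and 12.3, 19.7 and 26.7, 20.2, 19 and 20, and 25.3, 15.5 and 31.4 FPKM, and all 4 groups overlapped. Map3k15 (gene ID 270672, chrX:159988204-160123346), a kinase of the MAP kinase cascade, stood at 0.66 and 0.12, 0 and 0.12, 0.26, 0.23 and 0.35, and 0.29, 0.16 and 0.6 FPKM. These are an estimated 0 to 54 fragments per library, too few for the test, although its highest libraries were the same as those of Pcp4.

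CA2 genes were highest in the same libraries. WT cage 1 was the highest of the 4 home cage libraries for 5 of the 6 CA2 genes, for 9 of 11 further CA2 markers (such as Ntf3, encoding a neurotrophin, and Ccdc3) and for 22.3% of all tested genes. Its level exceeded that of WT cage 2 by 9.05-fold for Amigo2, 7.91-fold for Pcp4, 5.5-fold for Map3k15, 4.95-fold for Cacng5 and 2.09-fold for Necab2, but 1.24-fold for Rgs14. KO arena 3 was the highest of the 6 exploration libraries for 6 of 6 CA2 genes, 10 of 11 further CA2 markers and 13% of all tested genes. It exceeded the median of the other 5 by 2.79-fold for Amigo2, 2.19-fold for Pcp4, 2.11-fold for Cacng5 and 1.04-fold for Rgs14. A library with fewer cells of a type and one with less RNA per cell cannot be told apart in bulk tissue.

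Markers of the choroid plexus, the secretory epithelium of the ventricles, moved with the first of these libraries. All 5 were highest in WT cage 1 among the home cage libraries, and their sum was 235 FPKM there against 9.42 to 17.7 FPKM in the other 3. Most of it was Ttr, the carrier of thyroid hormone, at 219 FPKM against 0.73 to 4.24 FPKM. KO arena 3, which was high in the same CA2 genes, had a choroid plexus sum of 16.6 FPKM and Ttr at 2.35 FPKM, while Ttr stood at 118 and 93.6 FPKM in WT arena 1 and 2. The part of this tissue in the CA2 values of WT cage 1 was not tested.

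**Figure D2:**
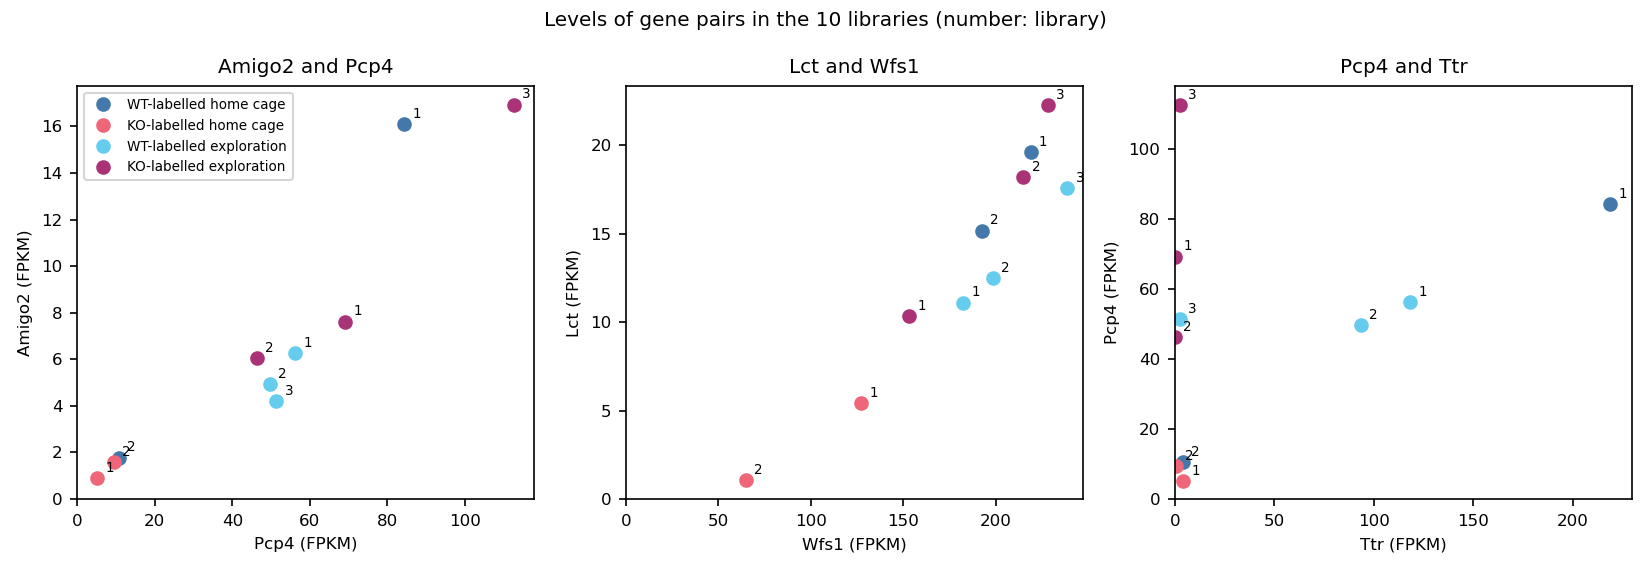
Levels of 3 gene pairs in FPKM (linear axes), 1 point per library with its library number, coloured by group. Amigo2 and Pcp4 rise together, Lct and Wfs1 are lowest in KO-labelled home cage library 2, and Ttr is high in 3 WT-labelled libraries and near 0 in KO-labelled exploration library 3, which has the most Pcp4.

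Bok (gene ID 51800, chr1:93685575-93695770), a member of the BCL family of apoptosis regulators and here the marker of CA3, stood at 15.6 and 6.44 FPKM in the WT-labelled home cage libraries, 4.53 and 4.99 in the KO-labelled home cage libraries, 19.8, 12.9 and 14 in the WT-labelled exploration libraries and 28.4, 26.8 and 32.4 in the KO-labelled exploration libraries. The 3 KO-labelled exploration libraries were above all others and the 2 KO-labelled home cage libraries below all others. The other CA3 markers were divided. Cpne4 was likewise lowest in the KO-labelled home cage pair, at 1.04 and 1.46 FPKM. Grik4, a kainate receptor subunit, stood highest in the KO-labelled home cage libraries, at 5.79 and 8.49 FPKM, against 1.89 to 4.79 FPKM elsewhere. Coch and Iyd did not reach 1 FPKM in any library. The CA3 markers thus gave no common order, and Bok is called by its symbol below.

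The dentate genes split. Prox1 (gene ID 19130, chr1:190118035-190170827), the transcription factor that sets granule cell identity, stood at 0.18 and 0.2, 0.3 and 0.5, 0.39, 0.34 and 0.18, and 0.18, 0.22 and 0.24 FPKM in the same order of groups, an estimated 27 to 75 fragments per library. Trpc6 (gene ID 22068, chr9:8543867-8680752), a cation channel, stood at 1.17 and 0.88, 0.62 and 0.98, 0.81, 1.03 and 0.51, and 0.64, 0.83 and 0.76 FPKM. Both were low everywhere. The Trpc6 groups overlapped, while Prox1 was higher in both KO-labelled home cage libraries than in the WT-labelled home cage pair and the KO-labelled exploration libraries, a difference too close to the floor to be tested. Lct (gene ID 226413, chr1:128284756-128328318), which encodes lactase, was far higher, at 19.6 and 15.2, 5.44 and 1.06, 11.1, 12.5 and 17.6, and 10.4, 18.2 and 22.3 FPKM. The 2 KO-labelled home cage libraries were below all others.

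The other dentate markers had no common level or order beside Lct. Of 12 further dentate markers 11 reached at most 1.45 FPKM, among them the granule cell genes Dsp, C1ql2 and Tdo2 at no more than 0.01, 0.3 and 0.73 FPKM. C1ql3 was abundant in every library, at 41.1 to 77.2 FPKM, and was highest in the KO-labelled home cage pair, where Lct was lowest. Across the 10 libraries the tested gene most like Lct was Wfs1, an endoplasmic reticulum protein that marks CA1 pyramidal cells (Pearson r = 0.986 of log2(FPKM + 1), over 10 libraries that include both environments). Wfs1 stood at 219 and 192, 127 and 64.9, 183, 199 and 239, and 153, 215 and 228 FPKM. Its lowest library, KO cage 2, was also the lowest for Lct. In what follows Lct is called by its symbol alone.

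Genotype label was compared in the home cage first, which addresses the baseline state of CA1. Lct was lower in the KO-labelled libraries, at 3.25 ± 3.10 against 17.4 ± 3.15 FPKM (SD, n = 2 and 2), a 5.35-fold difference of means. Of the 8 marker genes with enough signal to test, Lct alone was called, with a log2 change of -2.33 (SE 0.44, limma adjusted p = 0.0217). Limma called 1.45% of 11892 genes lower in this comparison, the call being a Benjamini-Hochberg adjusted p under 0.05 over all tested genes on log2(FPKM + 1). Pcp4, Amigo2, Cacng5 and Bok had log2 changes of -1.99, -1.64, -1.18 and -0.95 with limma adjusted p-values of 0.136, 0.194, 0.171 and 0.1. For these 4 genes WT cage 1 was high and WT cage 2 was close to the KO-labelled libraries, so that the spread within the WT-labelled pair was wide. Rgs14, Trpc6 and Necab2 had log2 changes of -0.23, -0.17 and 0.35 and were not called. The median over the 8 was -1.06, beside -0.02 over all tested genes.

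Single libraries decided these calls. Without WT cage 1 the log2 change of Lct was -2.15 (limma adjusted p = 0.172), without WT cage 2 it was -2.50 (0.0541), and without KO cage 2 it was -1.50 (0.123). Without WT cage 1 the log2 changes of Pcp4, Amigo2, Cacng5 and Bok shrank to -0.55, -0.33, -0.35 and -0.37 (limma adjusted p = 0.61, 0.795, 0.715 and 0.502). Without WT cage 2 these 4 genes were called lower, with log2 changes of -3.43, -2.95, -2.01 and -1.53 (limma adjusted p = 0.00552, 0.0117, 0.0217 and 0.00825). Markers of oligodendrocytes, astrocytes and vessels moved with KO cage 2, where Lct was lowest. Among the home cage libraries it was highest for 6 of 6 oligodendrocyte, 5 of 6 astrocyte, 3 of 6 microglia and 5 of 5 endothelial markers. It was also highest for 30.1% of all tested genes. Summed oligodendrocyte markers were at 188 to 225 FPKM in the KO-labelled and 137 to 164 FPKM in the WT-labelled pair. The part of these cells in the level of Lct was not tested.

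After spatial exploration none of the marker genes was called between the genotype labels. Bok was at 29.2 ± 2.9 FPKM in the KO-labelled and 15.5 ± 3.7 FPKM in the WT-labelled libraries (SD, n = 3 each), higher in 3 of 3 with no overlap, and its log2 change of 0.89 (SE 0.24) missed the threshold (limma adjusted p = 0.107). Limma called 0 of 8 marker genes in either direction, where 0.597% of all tested genes were called, and 1 of 8, Bok, had an unadjusted p under 0.05. Amigo2, Pcp4, Cacng5 and Lct had log2 changes of 0.76, 0.44, 0.27 and 0.25, with 95% intervals of -0.38 to 1.90, -0.76 to 1.64, -0.50 to 1.04 and -0.54 to 1.03. Without KO arena 3 those of Amigo2, Pcp4, Cacng5 and Lct were 0.36, 0.11, -0.04 and 0.03. Necab2, Rgs14 and Trpc6 lay at 0.22, -0.08 and -0.02. Bok was called when the exploration libraries were fitted alone (limma adjusted p = 0.0408) and when WT cage 1 or 2, which enter through the shared spread, was left out (0.0316 and 0.0315). With both environments averaged, 0 of 8 were called, where limma called 2.13% of all tested genes, and 1 of 8, Lct, had an unadjusted p under 0.05.

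The response to exploration was then compared within each label. In the KO-labelled mice, 5 of the 8 tested marker genes rose: Pcp4 from 7.24 ± 3.10 to 76.0 ± 33.7 FPKM (10.5-fold), Amigo2 from 1.24 ± 0.48 to 10.2 ± 5.88 FPKM (8.23-fold), Bok from 4.76 ± 0.33 to 29.2 ± 2.9 FPKM (6.13-fold), Lct from 3.25 ± 3.10 to 17.0 ± 6.06 FPKM (5.22-fold) and Cacng5 from 0.74 ± 0.13 to 3.63 ± 1.89 FPKM (4.91-fold; SD, n = 2 and 3). For each of the 5, all 3 exploration libraries were above both home cage libraries. The 5 were picked by their calls, so this separation adds no support. The share of all tested genes separated in this way is not given here. By limma 41.6% of all tested genes had an unadjusted p under 0.05 in this comparison. Limma called 12% of all tested genes higher in this comparison, beside 5 of 8 here. The 5 log2 changes were 3.19 for Pcp4 (SE 0.61), 2.39 for Bok (SE 0.26), 2.24 for Lct (SE 0.40), 2.22 for Amigo2 (SE 0.58) and 1.34 for Cacng5 (SE 0.40). Their limma adjusted p-values were 0.00455, 0.000769, 0.00335, 0.0172 and 0.0272. Map3k15, which was not tested, stood at 0 and 0.12 FPKM before and 0.16 to 0.6 FPKM after.

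Rgs14 and Necab2, the other tested CA2 genes, were not called. Their log2 changes were 0.18 (95% interval -0.05 to 0.40) and 0.01 (-0.61 to 0.64), and the upper bound of Rgs14 lay below the lower bounds of Pcp4 (1.84), Amigo2 (0.95) and Cacng5 (0.48). Trpc6 had a log2 change of -0.04 (-0.38 to 0.30). The median over the 8 genes was 1.78, beside -0.04 over all tested genes. The home cage and exploration libraries stand in separate tables, so environment and table cannot be told apart.

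**Figure D3:**
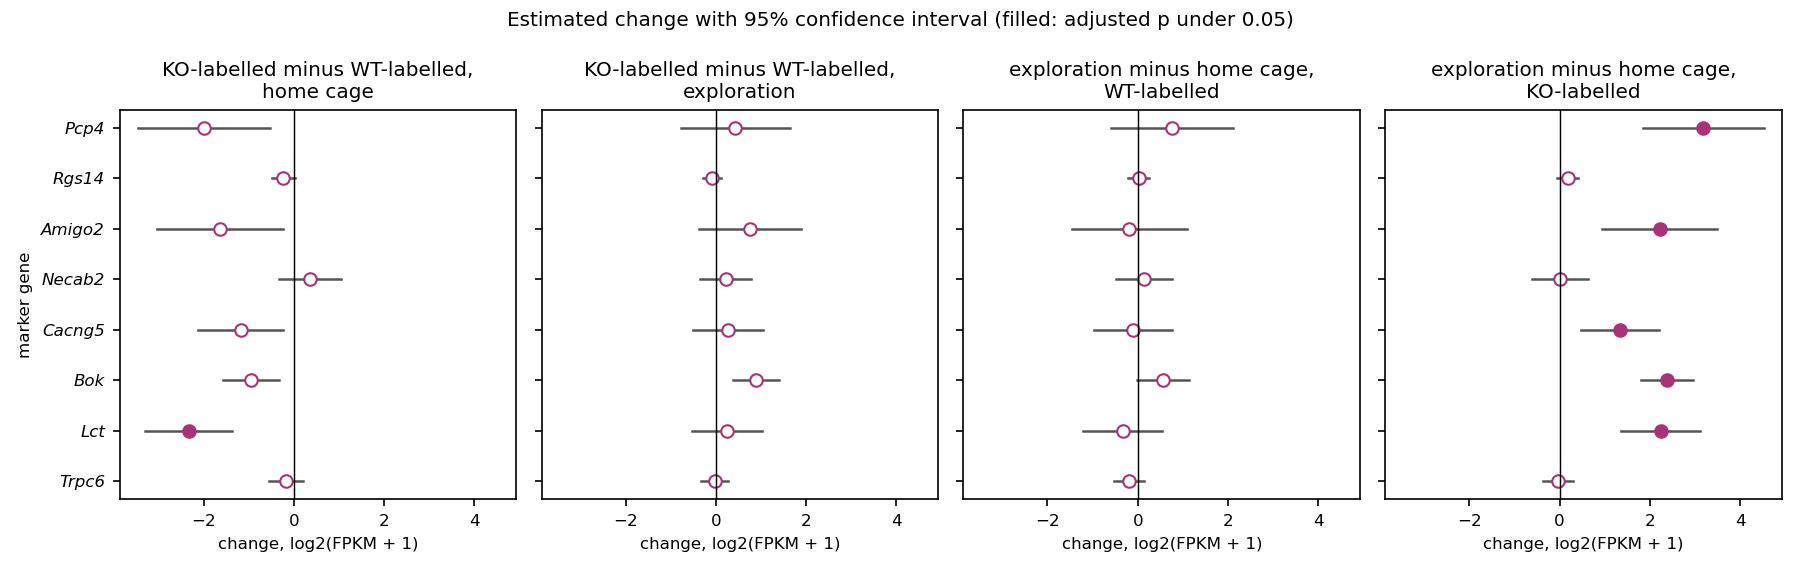
Estimated change on the log2(FPKM + 1) scale (x axis) of the 8 tested marker genes (y axis) with its 95% confidence interval from limma, in 4 comparisons; filled points are called at an adjusted p under 0.05. Filled points are Lct in the home cage panel and Pcp4, Amigo2, Cacng5, Bok and Lct in the panel of the KO-labelled response.

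Pcp4, Bok and Lct were called in the KO-labelled response whichever library was left out and under each other setting tried, although without KO cage 2 the log2 change of Lct was 1.42. Amigo2 was not called without KO cage 1 or 2 (log2 changes 2.00 and 2.44, limma adjusted p = 0.0739 and 0.0988), nor Cacng5 without those (1.42 and 1.27; 0.0653 and 0.182) or without KO arena 3 (1.03; 0.0693). Without both WT cage 1 and KO arena 3, all 5 were called, with log2 changes of 2.86 for Pcp4, 2.31 for Bok, 2.02 for Lct, 1.82 for Amigo2 and 1.03 for Cacng5. Of 8 interneuron markers 2 were called higher in the KO-labelled response, beside 12% of all tested genes. They were Pvalb, by 0.76, and Npy, by 0.57, both named after their values were seen (limma adjusted p = 0.00211 and 0.0272). The 8 summed to 229 to 249 FPKM in the KO-labelled home cage pair and 280 to 342 FPKM in the KO-labelled exploration libraries, and their part in the changes was not tested. Of 10 CA1 markers 2 were called higher and 6 lower, where limma called 12% of all tested genes higher and 16.6% lower. Choroid plexus markers summed to 9.42 to 14.2 and 10.5 to 16.6 FPKM in these groups.

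In the WT-labelled mice 0 of the 8 marker genes were called, by limma, where 6.31% of all tested genes were called in either direction, and 0 of 8 had an unadjusted p under 0.05. Pcp4 was at 47.5 ± 52.1 FPKM in the home cage and 52.5 ± 3.44 FPKM after exploration (SD, n = 2 and 3), with a log2 change of 0.76 and a 95% interval of -0.58 to 2.10. Amigo2 was at 8.95 ± 10.1 and 5.13 ± 1.04 FPKM (log2 change -0.18, interval -1.45 to 1.09). The spread within the home cage pair was larger than any difference between the groups for both genes. Bok, Necab2, Rgs14, Cacng5, Trpc6 and Lct had log2 changes of 0.55, 0.14, 0.02, -0.10, -0.19 and -0.33.

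The WT-labelled result rested on WT cage 1. Without it Pcp4 and Bok were called higher after exploration, with log2 changes of 2.19 and 1.13 (limma adjusted p = 0.0184 and 0.0176). Without it and KO arena 3, Amigo2 was called too, at 1.13 (limma adjusted p = 0.0248, against 0.0025 for Pcp4 and 0.0128 for Bok). Without WT cage 2 instead, the log2 changes of Pcp4, Amigo2 and Bok were -0.68, -1.49 and -0.03. A fit that leaves 1 library in a group assumes that it varies like the others.

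Whether the response differed between the labels was tested directly. Bok passed: its response was larger in the KO-labelled mice by 1.84 on the log2 scale (SE 0.37, limma adjusted p = 0.0496), where limma called 0.362% of all tested genes in that direction. Lct, Pcp4, Amigo2 and Cacng5 had differences of 2.57, 2.43, 2.40 and 1.45, with limma adjusted p-values of 0.0578, 0.187, 0.168 and 0.223. A difference between the labels in the response of these 4 genes was therefore not called, although they were called in 1 label and not in the other. It was called without WT cage 2 for Pcp4 (3.86, limma adjusted p = 0.0193), Amigo2 (3.71, 0.022) and Cacng5 (2.28, 0.0387), and for Lct without KO cage 1 (3.40, 0.00658) or KO arena 1 (2.87, 0.0237). Without WT cage 1 the differences of Pcp4, Amigo2 and Cacng5 were 0.99, 1.09 and 0.62 (limma adjusted p = 0.469, 0.449 and 0.593). Rgs14, Trpc6 and Necab2 had differences of 0.15, 0.15 and -0.13. The call of Bok was lost with a pseudocount of 0.1 (limma adjusted p = 0.0591), with no filter on low values (0.13) and with quantile normalization (0.0508). Of the 10 fits that leave out 1 library, it held only in those without WT cage 2 or KO arena 1, and without WT cage 1 its difference was 1.26 (limma adjusted p = 0.223).

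Averaged over both labels, 3 of the 8 marker genes rose with exploration, where limma called 12.6% of all tested genes higher. Pcp4 rose by 1.97 on the log2 scale (SE 0.43, limma adjusted p = 0.00651). Bok rose by 1.47 (SE 0.19, limma adjusted p = 0.000426) and Lct by 0.95 (SE 0.28, limma adjusted p = 0.0255). The rise of Lct lay in the KO-labelled libraries alone, where its log2 change was 2.24, against -0.33 in the WT-labelled libraries. Without WT cage 2 the change of Pcp4 was 1.25, and without KO cage 2 that of Lct was 0.541, which was not called (limma adjusted p = 0.113). Lct also lost its call without WT cage 2 (0.865, adjusted p = 0.0945), WT arena 3 (0.862, 0.0559) or KO arena 2 (0.912, 0.0506), with no filter on low values (0.0689), and without both WT cage 1 and KO arena 3 (0.93, 0.0692). Amigo2 and Cacng5 were called without WT cage 1 (1.67 and 1.03; limma adjusted p = 0.00262 and 0.00683). Markers of other cells were called in this comparison as well. Called higher were 4 of 6 oligodendrocyte, 4 of 6 microglia and 3 of 6 astrocyte markers. Of 10 CA1 markers 2 were called higher and 6 lower, where limma called 19.2% of all tested genes lower. The part of these cells in the changes was not tested.

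Further markers of the same subfields were read from longer lists, also chosen with earlier results of these data known. Of 11 other CA2 markers 8 were tested, and 5 rose in the KO-labelled response, where 12% of all tested genes did: Ccdc3 by 1.68, Ntf3 by 1.55, Arg2, a mitochondrial arginase, by 1.29, Sostdc1, a secreted antagonist of BMP and Wnt signals, by 1.14, and Gsto1, a glutathione transferase, by 0.71 on the log2 scale (limma adjusted p = 0.0131, 0.0246, 0.0159, 0.0405 and 0.0219). None fell, and the median over the 8 was 0.93, beside -0.04 over all tested genes. Ccdc3, for example, stood at 0.49 and 0.87 FPKM in the KO-labelled home cage libraries and at 4.03, 3.1 and 6.37 FPKM after exploration. Ptpn5, a phosphatase and the most abundant of the list, stood at 51.7 to 67.1 FPKM in every library and was not called in any comparison. The count of 5 was 2 with no filter on low values, 3 with a filter of 5 FPKM, 0 without KO cage 2, 2 without KO cage 1, 2 without KO arena 3, and 5 with both WT cage 1 and KO arena 3 left out. Single calls depended on other libraries as well: that of Sostdc1 was also lost without WT arena 1 or 2 or KO arena 1.

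Of 10 other CA3 markers 7 were tested, and in the KO-labelled response 1 was called higher and 2 lower. This is near the share over all tested genes, of which 28.6% were called in either direction. Cpne4, a copine, rose by 2.24 (limma adjusted p = 0.00975), from 1.04 and 1.46 FPKM to 11.2, 5.85 and 13.3 FPKM. Grik4 fell by 0.90 and Mas1, a receptor of an angiotensin peptide, fell by 0.49 (limma adjusted p = 0.0203 and 0.0247), while Bok rose. Dkk3, which held 92.6% of the summed list, stood at 295 to 330 FPKM throughout. Cpne4, Grik4 and Mas1 were not called without KO cage 2 (2.38, -0.658 and -0.336). Grik4 also lost its call without KO arena 2 (-0.71), and Mas1 without KO arena 2 or 3 (-0.427 and -0.409).

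Of 12 other dentate markers, C1ql3 and Stxbp6 alone passed the filter on low values; Stxbp6, named outside the naming rule, reached 1.45 FPKM at most. C1ql3, a secreted synaptic protein that held 93.0% of the list's sum, fell by 0.55 in the KO-labelled response (limma adjusted p = 0.0239), from 72.9 and 77.2 FPKM to 59.9, 54.0 and 41.1 FPKM, while Lct rose. It was not called without KO cage 1 or 2 or KO arena 3 (-0.587, -0.505 and -0.393). Averaged over labels, Cpne4 rose by 1.21 and Ccdc3 by 0.83 (limma adjusted p = 0.0269 and 0.049). Both calls were lost without WT cage 2, with log2 changes of 0.609 and 0.354, and without KO cage 1 or 2. That of Cpne4 was also lost without WT arena 1, and that of Ccdc3 held only without WT cage 1 or KO arena 2. In the other 5 comparisons limma called 0 of the 17 tested genes of these 3 lists. At an unadjusted p under 0.05 there were 8 of 17 for the genotype label in the home cage, 0 after exploration, 2 on average, 0 for the WT-labelled response and 8 for the difference between responses, where the shares over all tested genes were 18.3%, 17.2%, 20.2%, 22.7% and 16.1%.

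**Figure D4:**
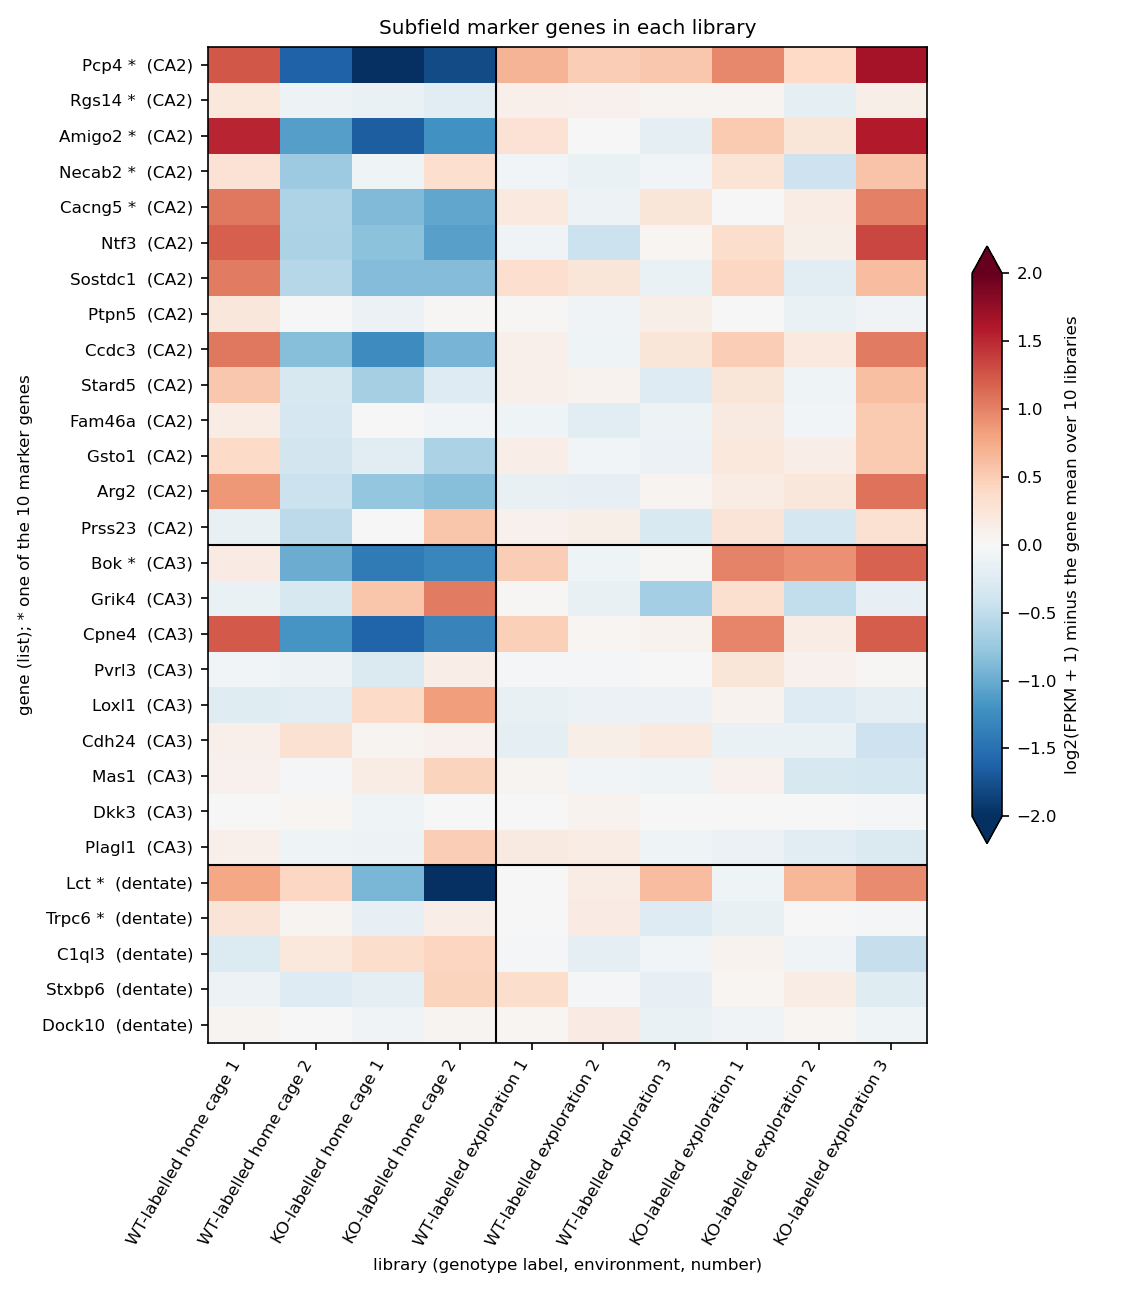
Log2(FPKM + 1) minus each gene's mean over the 10 libraries (colour, with values beyond 2 in either direction drawn at the end colour) for the listed CA2, CA3 and dentate markers that reached 1 FPKM in at least 1 library; asterisks mark the genes described first. Most CA2 rows are red in WT-labelled home cage library 1 and KO-labelled exploration library 3 and blue in the other 3 home cage libraries, Cpne4 among the CA3 rows looks the same, and C1ql3 runs against Lct.

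The genes whose levels were most like those of the marker genes over the 10 libraries were read as a description, with Pearson r of log2(FPKM + 1) across libraries that share their environment and table. Pcp4 and Amigo2 were at r = 0.945, Amigo2 and Cacng5 at 0.957, and Pcp4 and Bok at 0.916, whereas Necab2 reached at most 0.506 and Trpc6 at most 0.227 with any other tested marker gene. Nearest to Pcp4 were Cpne4 (0.976), Ccdc3 (0.966) and Serinc3 (0.961). Nearest to Amigo2 were Htr7, a serotonin receptor (0.984), Ccdc3 (0.983) and Il16, a cytokine (0.974). Nearest to Cacng5 were Il16 and Arg2 (both 0.967) and Ccdc3 (0.961). Ccdc3 was thus among the 3 nearest genes of all 3 of these CA2 markers.

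Bok and Lct had neighbours of their own. Nearest to Bok were Spock3, a proteoglycan (0.977), Hs3st4, a heparan sulfate sulfotransferase (0.976), and Arhgap15, which acts on Rac (0.967). Spock3 stood at 8.38 and 8.98 FPKM in KO cage 1 and 2 and at 19.1, 16.9 and 19.6 FPKM in KO arena 1 to 3, a smaller contrast than that of Bok. Nearest to Lct were Wfs1 (0.986), Olfm3, an olfactomedin (0.982), and Rasd1, a small GTPase induced by glucocorticoids (0.98). The CA1 markers did not move as 1 group. Wfs1 was itself lower in the KO-labelled home cage libraries (log2 change -1.17, limma adjusted p = 0.0358) and rose in the KO-labelled response by 1.10 (adjusted p = 0.00746). Neither call of Wfs1 held without KO cage 2, where its log2 changes were -0.685 and 0.618, and the first was also lost without either WT-labelled home cage library (-1.07 and -1.26), WT arena 1 or 2, or KO arena 2. Other CA1 markers, named after their values were seen, went against Wfs1. Mpped1 and Dcn were called higher in the home cage (log2 changes 0.42 and 2.87, limma adjusted p = 0.0387 and 0.0391), where 2.12% of all tested genes were. Dcn stood at 27.2 FPKM in KO cage 2 and 2.82 in KO cage 1. In the KO-labelled response 6 of 10 CA1 markers, these 2 included, were called lower, beside 16.6% of all tested genes. For genes outside the subfield lists other than Wfs1, the dependence of calls on single libraries is not given here.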

How the data were processed

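RNA of dissected CA1 was sequenced as paired reads of 100 bp, and 10 of the 16 labelled samples were used. The other 6, with the learning condition as source, were not analysed. The authors deposited FPKM per gene and library in 2 tables, of 19156 genes (exploration) and 18257 genes (home cage), per the file headers, and these were joined on gene ID to 17986 genes. The submitters' processing notes name HISAT, StringTie, GATK, Bowtie2 and RSEM and the build GRCm38 (mm10), with no versions or roles. Whether the tables were normalized together and whether counting used strand are not given in the sources used here, so genes overlapping another are uncertain.

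FPKM are not counts, so log2(FPKM + 1) was fitted in limma 3.58.1 (R 4.3.3) with a variance trend and 1 mean per group over the 10 libraries (6 residual and 5.71 prior degrees of freedom), for the 11892 genes that reached 1 FPKM in 2 or more libraries. Changes on this scale understate those of low genes. Adjusted p-values are limma's, by Benjamini-Hochberg over all tested genes, in 7 comparisons. Of the 10 marker genes 8 were tested, all but Map3k15 and Prox1. P-values measure the spread between libraries of the same group, pooled over the groups and moderated over genes. That each library is another mouse is inferred here from the animal counts in the series' text. The fit was tested on simulated data. Fragments per library were estimated from the spacing of low values with transcript lengths from GENCODE less 100 nt; without that offset they came to 17400000 to 18550000. Positions and upstream windows are RefSeq's in GRCm38.p6.

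The marker genes and lists were chosen with earlier results of these data known. Named were all 10 genes, Neil3, up to 5 called genes per other subfield list and comparison, and the 3 tested genes most like each called marker gene. Alternatives tried were no filter, a filter of 5 FPKM, a pseudocount of 0.1, median-of-ratios size factors, quantile normalization, only the groups compared, and leaving out each library. Leaving out the first WT-labelled home cage library (WT cage 1) and the third KO-labelled exploration library (KO arena 3) together was added after seeing the data. So were all alternatives for genes of the other subfield lists and Wfs1. Library numbers only name libraries and pair none.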

Additional observations from a re-analysis of the deposited data

Results flagged for a closer look

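Bok was called for a difference between the genotype labels in its response to exploration, by the test of the difference itself. The response was larger in the KO-labelled libraries by 1.84 on the log2(FPKM + 1) scale (SE 0.37, limma adjusted p = 0.0496). Of the 8 tested marker genes, 1 passed in that comparison, where limma called 0.362% of all tested genes in that direction. Bok stood at 15.6 and 6.44 FPKM in WT cage 1 and 2, 19.8, 12.9 and 14 in WT arena 1 to 3, 4.53 and 4.99 in KO cage 1 and 2, and 28.4, 26.8 and 32.4 in KO arena 1 to 3. Without WT cage 2 the difference was 2.41, and without WT cage 1 it was 1.26. The call was lost with a pseudocount of 0.1, with no filter on low values and with quantile normalization. It was lost as well in most of the fits that left out 1 library.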

How the results depend on the processing

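Over the 56 log2 changes of the 8 tested marker genes in 7 comparisons, the alternatives gave 897 values, of which 807 kept direction and side of the threshold, 30 lost a call, 22 gained one and 38 changed sign. Most of the 56 changes were not called with every library in, and so had no call to lose. The sign changes are all among these. Calls of Pcp4, Bok and Lct in the KO-labelled response, and of Pcp4 and Bok averaged over labels, held under every alternative run. With 2 or 3 libraries a group, the precision is limited by their number, and FPKM carry no depth of their own.

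The number of marker genes called between labels in the home cage was 1, and 0 with no filter on low values or with WT cage 1 and KO arena 3 both left out. After exploration it was 0, and 1 with only the groups compared. In the WT-labelled response it was 0, and 3 with both libraries left out. In the KO-labelled response it was 5, and 3 with no filter. For the difference between responses it was 1, and 0 with a pseudocount of 0.1, no filter, quantile normalization or both libraries left out. The cause was not tested. Leaving out each library gave counts of 0 to 4 in the home cage, 0 to 1 after exploration, 0 to 1 averaged over environments, 0 to 2 in the WT-labelled response, 3 to 5 in the KO-labelled response, 2 to 5 averaged over labels and 0 to 4 for the difference between responses. The lone library of a group that has lost the other is assumed to vary like the rest.

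Quantile normalization turned the sign of Trpc6 after exploration (0.073) and in the KO-labelled response (0.102), of Rgs14 in the WT-labelled response (-0.0801) of Necab2 in the KO-labelled response (-0.0145) and of Rgs14 averaged over labels (-0.013). With both libraries left out the sign turned for Cacng5 after exploration (-0.0446) and in the WT-labelled response (0.726), Amigo2 in the WT-labelled response (1.13), Necab2 in the KO-labelled response (-0.199) Rgs14 in the difference between responses (-0.0599), and Amigo2 and Bok between labels averaged over environments (0.016 and 0.221).

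Leaving out each library turned further signs. In the home cage Necab2 ranged from -0.154 to 0.851. After exploration Rgs14 ranged from -0.137 to 0.00741, Cacng5 from -0.0446 to 0.466 and Trpc6 from -0.138 to 0.0197. Averaged over environments Amigo2 ranged from -1.09 to 0.216 and Bok from -0.32 to 0.258. Averaged over labels Necab2 ranged from -0.175 to 0.327. In the WT-labelled response Pcp4 ranged from -0.677 to 2.19, Rgs14 from -0.133 to 0.179, Amigo2 from -1.49 to 1.13, Necab2 from -0.363 to 0.642, Cacng5 from -0.935 to 0.726 and Bok from -0.027 to 1.13. In the KO-labelled response Necab2 ranged from -0.199 to 0.286 and Trpc6 from -0.185 to 0.104. In the difference between responses Rgs14 ranged from -0.00298 to 0.309 and Necab2 from -0.63 to 0.375. No paired analysis was possible because each library is another mouse and the library numbers were given in the order of the samples.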

Other observations

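Markers of neighbouring structures outside the hippocampal fields were read beside the marker genes. The genes named here were chosen after their values were seen. The 4 subiculum markers summed to 2.83 to 6.34 FPKM over the 10 libraries. Among 7 thalamus markers Plekhg1 held 66.6% of the sum. It stood at 2.91 and 1.23 FPKM in the KO-labelled home cage pair, against 8.55 and 11.4 FPKM in WT cage 1 and 2 (log2 change -1.88, limma adjusted p = 0.00774). Lct was lowest in that KO-labelled pair as well. Pcp4, Amigo2, Cacng5 and Bok were low there but also in WT cage 2, where Plekhg1 was highest. The other 6 thalamus markers summed to 2.47 to 3.77 FPKM over all libraries.

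Of 8 striatum markers 5 were tested, and in the home cage 1 was called lower and 1 higher. Limma called 1.45% of all tested genes lower and 2.12% higher there. Scn4b, a sodium channel subunit, stood at 3.87 and 1.29 FPKM in the KO-labelled and 13.8 and 8.78 FPKM in the WT-labelled pair (log2 change -1.85, limma adjusted p = 0.0186). Rxrg, a retinoid receptor, stood at 1.74 and 4.79 against 0.23 and 0.61 FPKM (log2 change 1.5). It reached 1 FPKM in the KO-labelled home cage pair alone. It thus passed the filter only through the group where it was high, and its call carries no weight. Dcn, a proteoglycan listed among the CA1 markers, stood at 27.2 FPKM in KO cage 2 and at 0.2 to 2.82 FPKM in the others.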
